A study of Mus musculus with 26 samples.

Results

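The comparison concerns mouse embryonic stem cells labelled Prdm14(-/-) and asks how their messenger RNA levels differed after 2 days in serum with a MEK inhibitor from those after 2 days in serum alone. It rests on 4 of 26 arrays, chosen by their labels: 2 arrays of serum plus MEK inhibitor and 2 of serum. The 4 matching arrays of Prdm14(+/+) cells served to set the response beside that of wild type. All these cells were C57BL/6 and male, grew on mouse embryonic fibroblast feeders, and had medium with 20% fetal bovine serum and LIF at 1000 units per ml. The treated cultures also had the MEK inhibitor PD0325901 at 0.4 uM. Both groups of the comparison therefore share the labelled Prdm14 deletion, LIF, serum and feeders. The labels call the knockout cells ESC-like. They give neither the number of clones nor the origin of the replicates, so the p-values rest on a spread between arrays that may be purely technical.

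MEK is the kinase that activates ERK, the last kinase of the cascade through which fibroblast growth factors act on embryonic stem cells. In these cells ERK activity is known to favour exit from the naive state, and a MEK inhibitor together with a GSK3 inhibitor and LIF makes up 2i medium, which holds cells in that state. ERK also switches on its own inhibitors, the Sprouty, Spred and dual-specificity phosphatase genes. Prdm14 is a PR-domain protein of naive stem cells and primordial germ cells that acts on FGF receptor signalling and on the de novo DNA methyltransferases.

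Prdm14 itself went against the labels. Its probe set read 10.60 and 10.87 on the MEK inhibitor arrays labelled knockout, against 5.40 and 6.47 on the serum arrays labelled knockout (deposited log2 signal). Wild-type arrays read 9.04 and 9.48 with MEK inhibitor, against 5.88 and 7.38 in serum. With 4.80 (SE 0.41, limma adjusted p = 1.68e-07), Prdm14 had the largest difference of all 18193 genes in the arrays labelled knockout, with no overlap of the groups. In wild type the Prdm14 difference was 2.63 (adjusted p = 0.000108). The Prdm14 responses of the genotypes differed by 2.17, which did not pass the test (adjusted p = 0.136). Elsewhere in the series the Prdm14 probe set read 11.33 and 11.24 in knockout 2i, against 8.95 and 9.40 in wild-type 2i. Without LIF it read 3.21 and 4.05 in knockout, against 4.28 and 5.17 in wild type. Knockout cells with the AGP14 rescue transgene had 9.30 and 9.11 in 2i, 6.42 and 6.33 in serum, and 5.12 and 4.86 without LIF. Epiblast-like cells had 2.93 and 3.20 at day 2, and 2.69 and 3.12 at day 3. The sources used here do not give the deleted part of the gene, and a probe set outside the deleted part does not check the genotype. The word knockout therefore stands for the label throughout.

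A second limit touches every value. The spike-in lys, a set of bacterial transcripts added during labelling, read 13.48 to 13.55 on the knockout MEK inhibitor arrays, against 6.92 to 7.26 on the knockout serum arrays. Over the series 12 arrays were high and 14 low, with all MEK inhibitor arrays in the high set and all serum arrays in the low set. MEK inhibitor and labelling batch thus cannot be told apart in either genotype. The one fit that holds the batch as a term takes it from the AGP14 arrays in 2i, the only 2i arrays of the low set. It assumes that AGP14 cells differ from wild type equally in 2i and in the serum media, and it rests on 2 arrays. Its values are given below as those with the batch term. Pou5f1 and Sox2, the core factors that mark pluripotent cells, lay at or above 12.33 and 12.40 on all 4 knockout arrays.

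Of 18193 genes, 2721 (15.0%) were higher and 1740 (9.56%) lower with MEK inhibitor in the arrays labelled knockout, 24.5% in all. A gene counts as risen or fallen at an adjusted p under 0.05. The counts by list below are to be read beside these shares of all genes. Rises made up 61.0% of the calls on the values as deposited and 47.9% after quantile normalization, with 2177 rises and 2371 falls. Among called genes, 681 rose and 435 fell by at least 1 log2 unit, and 20 rose and 6 fell by at least 3. The median difference over all genes was 0.005. With the batch term 380 genes rose (2.09%) and 615 fell (3.38%), 5.47% in all, and of the original calls 244 rises (8.97%) and 292 falls (16.8%) were kept. Arrays of the compared groups alone gave 2602 calls. Without MEK inhibitor replicate 2 there were 2940 calls.

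**Figure D1:**
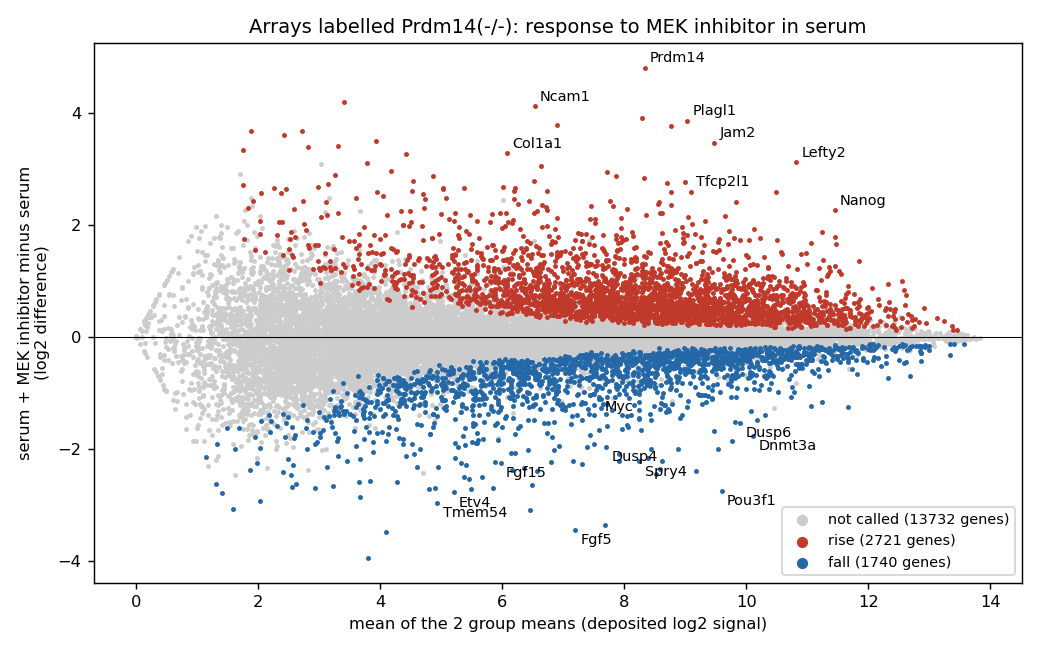
Each point is 1 of 18193 genes in the arrays labelled knockout. The x axis gives the mean of both group means and the y axis the MEK inhibitor minus serum difference (both in deposited log2 units); 2721 genes called higher are red and 1740 called lower are blue, with Prdm14 at the top (4.80) and Fgf5 (-3.45) and Pou3f1 (-2.75) among the lowest.

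Most ERK feedback inhibitors were lower with MEK inhibitor. Of 15 measured, 10 fell and 0 rose, with a median difference of -0.81 over the list and 0.005 over all genes. Spry4, a Sprouty protein that blocks receptor signalling to ERK, read 7.15 and 7.12 on the MEK inhibitor arrays, against 9.28 and 9.44 on the serum arrays, a difference of -2.23 (SE 0.34, adjusted p = 1e-04). Dusp6, the phosphatase that removes the activating phosphates of ERK in the cytoplasm, read 9.20 and 9.05 with MEK inhibitor, against 10.77 and 10.56 in serum. Its difference of -1.54 had the smallest p of the list (SE 0.11, adjusted p = 2.18e-08). In both genes the replicates lay close together and the groups far apart. Dusp4, a nuclear ERK phosphatase, read 7.02 and 6.42 with MEK inhibitor, against 9.40 and 7.98 in serum (difference -1.97, adjusted p = 0.00122). The serum replicates of Dusp4 were far apart, yet both exceeded the treated arrays, and its difference was -1.26 without serum replicate 1. Falls were also called for Dusp2 (-1.34), Dusp9 (-1.29), Spred3 (-1.27), Spred1 (-0.89) and Errfi1 (-0.69), the last an inhibitor of EGF receptor kinases.

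The 250 bases before the RefSeq start of Dusp6 (GRCm38.p6, chr10:99262981-99263230, plus strand) are shown because Dusp6 had the clearest fall among the feedback genes. A search of both strands found none of 4 motifs there: the extended ETS site CCGGAAG, the AP-1 site TGANTCA, the octamer TTTGCAT and the STAT site TTCNNNGAA, so no base is in capitals. Among 32851 RefSeq windows of this length these motifs occur in 6.91%, 6.75%, 4.12% and 7.02%.
Dusp6: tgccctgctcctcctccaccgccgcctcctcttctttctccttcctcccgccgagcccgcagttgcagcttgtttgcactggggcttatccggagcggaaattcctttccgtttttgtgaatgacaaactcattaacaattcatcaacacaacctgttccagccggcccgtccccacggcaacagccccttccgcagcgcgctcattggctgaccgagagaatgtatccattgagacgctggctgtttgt

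Spry1 and Spry2 also passed, on narrow margins. Spry1 read 8.19 and 7.68 with MEK inhibitor, against 9.31 and 8.17 in serum, and the groups overlapped. Its call (difference -0.81, adjusted p = 0.0387) was lost without MEK inhibitor replicate 2 or serum replicate 1, when the adjusted p reached 0.604. Spry2 fell by 0.32 (adjusted p = 0.0271), and its call was lost without any 1 of the 4 arrays (adjusted p 0.0533 to 0.163). The 5 members that did not pass were Spred2 (0.15), Dusp1 (0.12), Dusp5 (0.27), Dusp7 (-0.26) and Il17rd (0.04). Of 6 further probe sets of Spred1, 3 had differences of the same sign as its brightest (-1.08, -0.32 and -0.04) and 3 the opposite sign (0.11 to 2.08). In wild type 8 of the 15 fell and 0 rose, with a median of -0.53, where 11.2% of all genes fell and 14.3% rose. With the batch term the list's median was -0.65, 4 of the 10 falls were kept, and Dusp6 was at -0.26 (adjusted p = 0.52).

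**Figure D2:**
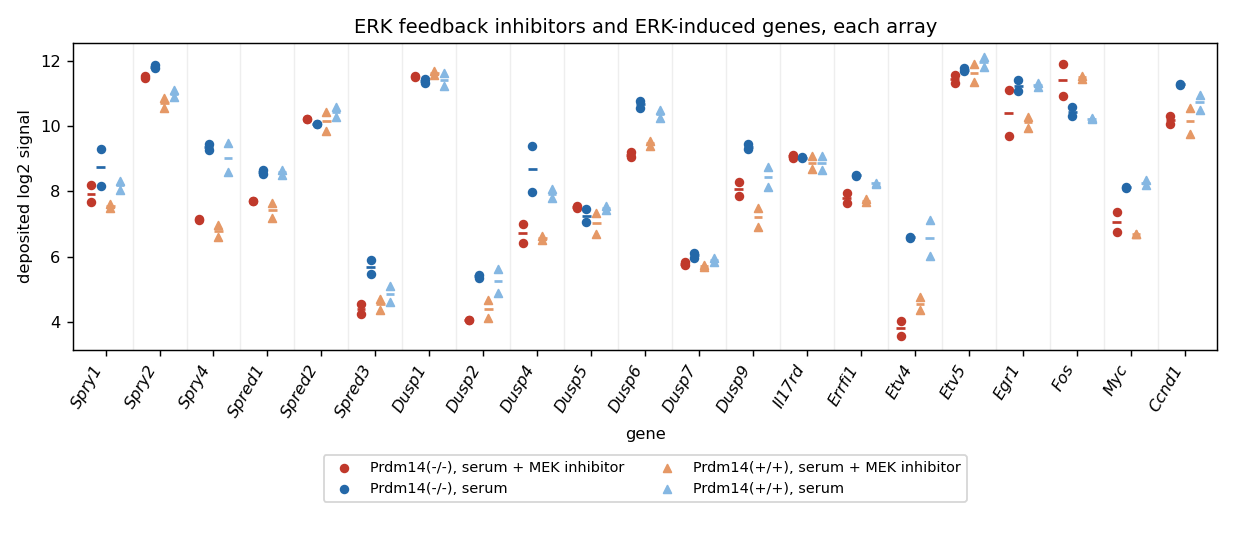
Each point is 1 array, and each dash a group mean, on the deposited log2 scale (y axis) for 21 genes (x axis). Red and blue circles are arrays labelled knockout with MEK inhibitor and in serum, and orange and light blue triangles the wild-type arrays in the same order; Spry4, Dusp6, Dusp9 and Etv4 show the treated circles well below the serum circles, while Dusp1 and Il17rd lie together.

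Genes that ERK induces responded less uniformly. Of 22 measured, 6 fell (27.3%) and 2 rose (9.09%), beside 9.56% and 15.0% of all genes, with a median of -0.18. With the batch term 6 fell and 0 rose, with a median of -0.59, and 3 of the 6 original falls were kept. After quantile normalization 8 fell and 1 rose. Etv4, an ETS factor downstream of FGF signalling, read 3.59 and 4.04 with MEK inhibitor, against 6.58 and 6.61 in serum (difference -2.78, SE 0.28, adjusted p = 1.23e-06). It kept its call with the batch term, at -2.51 (adjusted p = 0.0021). Ccnd1, the G1 cyclin D1, read 10.30 and 10.07 with MEK inhibitor, against 11.26 and 11.28 in serum, a difference of -1.08 (adjusted p = 0.00164). Myc, the growth-promoting transcription factor, read 7.36 and 6.75 with MEK inhibitor, against 8.13 and 8.12 in serum, a difference of -1.07 (adjusted p = 0.000944). Its sign turned with the batch term (0.67). The early-response genes Junb, Maff and Ier5 fell, with differences of -0.65, -0.97 and -0.69. All 3 calls were lost without MEK inhibitor replicate 1 (adjusted p up to 0.116, 0.0618 and 0.239), that of Ier5 also without serum replicate 1, and a further probe set of Ier5 had 0.82.

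The AP-1 genes Fos and Fosb went the other way. Fos read 10.93 and 11.91 with MEK inhibitor, against 10.30 and 10.58 in serum, a rise of 0.98 (adjusted p = 0.00643) that was lost without MEK inhibitor replicate 2 or serum replicate 1 (adjusted p up to 0.18) and was -1.81 with the batch term. Fosb rose by 0.75 (adjusted p = 0.0428), a call lost without any 1 of the 4 arrays (adjusted p 0.0983 to 0.173). Egr1, an immediate early gene, had 9.71 and 11.10 with MEK inhibitor, against 11.06 and 11.41 in serum, so its groups overlapped (difference -0.83, adjusted p = 0.0525). The Egr1 difference rested on single arrays: it was -0.14 without MEK inhibitor replicate 1 (adjusted p = 0.776) and -1.52 without MEK inhibitor replicate 2 (adjusted p = 0.000338). It was -2.98 with the batch term and passed (adjusted p = 0.000723). Etv5, the close relative of Etv4, had -0.27 (adjusted p = 0.2).

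Of 11 measured kinases and adaptors of the ERK cascade, 4 rose (36.4%, beside 15.0% of all genes) and 0 fell, with a median of 0.26. Map2k1, which encodes MEK1, the target of the inhibitor, read 10.85 and 10.98 with MEK inhibitor, against 10.24 and 10.37 in serum, a rise of 0.61 (adjusted p = 2.52e-06). The ERK-activated kinase gene Rps6ka3, the exchange factor gene Sos1 and the scaffold gene Shoc2 rose by 0.65, 0.58 and 0.49, but each has a further probe set of opposite sign. With the batch term Map2k1 was at 0.06 and 0 of the 4 rises were kept.

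Among 13 FGF ligands and receptors, 2 fell (15.4%) and 3 rose (23.1%), not far from the 9.56% and 15.0% of all genes. Fgf15 read 4.75 and 4.95 with MEK inhibitor, against 7.35 and 6.85 in serum (difference -2.25, SE 0.23, adjusted p = 1.6e-06), and was -2.15 with the batch term (adjusted p = 0.0018). Fgf5 is treated with the formative genes below. Fgfr1, the main FGF receptor of embryonic stem cells, read 9.11 on both MEK inhibitor arrays, against 8.33 and 8.03 in serum, a rise of 0.93 (adjusted p = 1.22e-05) and of 1.70 with the batch term. Fgf4, the autocrine ligand of these cells, rose by 0.71, a call lost without any 1 array (adjusted p 0.0686 to 0.121). Fgf10 rose by 0.75, a call lost without MEK inhibitor replicate 1 or serum replicate 1 (adjusted p up to 0.131).

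Naive pluripotency genes were the group with the highest share of rises among the lists in the plot of calls by list. Of 22 measured, 18 rose and 1 fell, with a median of 1.09. The mean level over the list was 10.27 and 10.23 on the MEK inhibitor arrays, against 8.87 and 9.04 on the serum arrays. Wild-type arrays had 10.50 and 10.51 with MEK inhibitor, against 9.51 and 9.96 in serum, and knockout arrays in 2i had 10.48 and 10.41. In wild type 12 of the 22 rose and 1 fell, with a median of 0.71, beside 14.3% of all genes that rose and 11.2% that fell there. The knockout response was the more positive one for 19 of 22 genes, beside 9571 of all 18193, but none of the 22 differences between genotypes passed its own test (0 calls). With the batch term the median was 0.14, and 1 of the 18 rises, Prdm14, was kept.

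Nanog, a homeodomain factor of the naive network, read 12.56 and 12.60 on the MEK inhibitor arrays, against 10.14 and 10.50 on the serum arrays. The difference was 2.26 (SE 0.18, adjusted p = 9.66e-08), and 1.61 in wild type (adjusted p = 4.37e-06). Nanog read 12.65 and 12.73 in knockout 2i, and 12.63 and 12.71 in wild type with MEK inhibitor, beside the treated knockout arrays. Esrrb, an orphan nuclear receptor, read 10.64 and 10.73 with MEK inhibitor, against 8.80 and 9.04 in serum (difference 1.76, SE 0.27, adjusted p = 8.37e-05). In knockout 2i Esrrb read 11.00 and 11.13. With the batch term Nanog was at 0.56 (adjusted p = 0.39) and Esrrb at -0.05 (adjusted p = 0.98).

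The 250 bases before the RefSeq starts of Nanog (GRCm38.p6, chr6:122707239-122707488, plus strand) and Esrrb (chr12:86360867-86361116, plus strand) are shown because both genes rose and because their windows hold motifs of pluripotency factors. Capitals mark the motif matches. That of Nanog is the octamer TTTGCAT, the letters bound by POU factors such as the Pou5f1 protein, from base -75 to base -69 before the start. That of Esrrb is TTCGTGGAA, a match to the STAT site TTCNNNGAA, from base -178 to base -170. Each window holds 1 match to the 4 motifs named above. RefSeq lists 2 starts for each gene, and the upstream one was taken. A match is a description of these letters and shows no binding. As the windows were chosen for their matches, a match carries no information on the rises. The octamer occurs in 4.12% and the STAT site in 7.02% of the 32851 windows.
Nanog: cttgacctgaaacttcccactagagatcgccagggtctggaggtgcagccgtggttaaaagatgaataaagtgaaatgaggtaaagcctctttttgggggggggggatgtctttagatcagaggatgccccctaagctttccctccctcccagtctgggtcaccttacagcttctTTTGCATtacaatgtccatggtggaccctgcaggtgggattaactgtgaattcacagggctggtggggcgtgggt
Esrrb: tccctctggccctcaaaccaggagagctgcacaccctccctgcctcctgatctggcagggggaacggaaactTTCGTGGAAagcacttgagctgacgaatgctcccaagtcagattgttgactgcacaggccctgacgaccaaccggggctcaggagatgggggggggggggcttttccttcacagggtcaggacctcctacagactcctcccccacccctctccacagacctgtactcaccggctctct

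Tfcp2l1, a LIF-responsive transcription factor, read 10.41 and 10.37 with MEK inhibitor, against 7.79 and 7.81 in serum (difference 2.59, adjusted p = 3.56e-06). Nr5a2, a nuclear receptor, read 9.77 and 9.79 with MEK inhibitor, against 7.20 and 7.55 in serum (difference 2.40, adjusted p = 7.16e-06). Tbx3, a T-box repressor, read 9.77 and 9.60 with MEK inhibitor, against 7.75 and 7.20 in serum (difference 2.21, adjusted p = 9.45e-05). In these 3 genes every treated array exceeded every serum array by over 1 log2 unit. Klf4, a LIF-responsive Krüppel-like factor, read 12.25 and 12.43 with MEK inhibitor, against 10.08 and 11.04 in serum (difference 1.78, adjusted p = 0.00132).

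Among the other members, Tcl1, an activator of AKT kinase, rose by 1.82, the adhesion molecule gene Pecam1 by 1.54, the dioxygenase gene Tet2 by 1.42 and the lysosomal mannosidase gene Manba by 1.25. Lifr, the receptor subunit for LIF, rose by 0.92, and the transcription factor genes Klf2, Zfp42, Sox15, Klf5 and Nr0b1 by 0.90, 0.89, 0.74, 0.73 and 0.94. The call of Nr0b1 was lost without MEK inhibitor replicate 1 or serum replicate 1 (adjusted p up to 0.11). Gbx2, a LIF-induced homeobox gene, was the exception: it read 5.34 and 4.86 with MEK inhibitor, against 6.48 and 6.87 in serum. Its difference of -1.57 (adjusted p = 0.0049) was lost without MEK inhibitor replicate 2 or serum replicate 2 (adjusted p up to 0.0625). Stat3, Dppa5a and Dppa3 had 0.15, 0.03 and 0.18 and did not pass.

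Core pluripotency genes had differences from -0.17 to 0.865, with a median of 0.17. Of 11 measured, 4 rose (36.4%) and 1 fell (9.09%), beside 15.0% and 9.56% of all genes. With the batch term 0 of these 4 rises were kept, and the fall was not kept either. Pou5f1 read 12.69 and 12.74 with MEK inhibitor, against 12.33 and 12.44 in serum, a rise of 0.33 (adjusted p = 0.000127). Sox2, its partner, rose by 0.37, a call lost without serum replicate 1 (adjusted p = 0.139). Tdgf1, the Nodal co-receptor Cripto, fell by 0.17, a call lost without any 1 array (adjusted p 0.082 to 0.17).

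**Figure D3:**
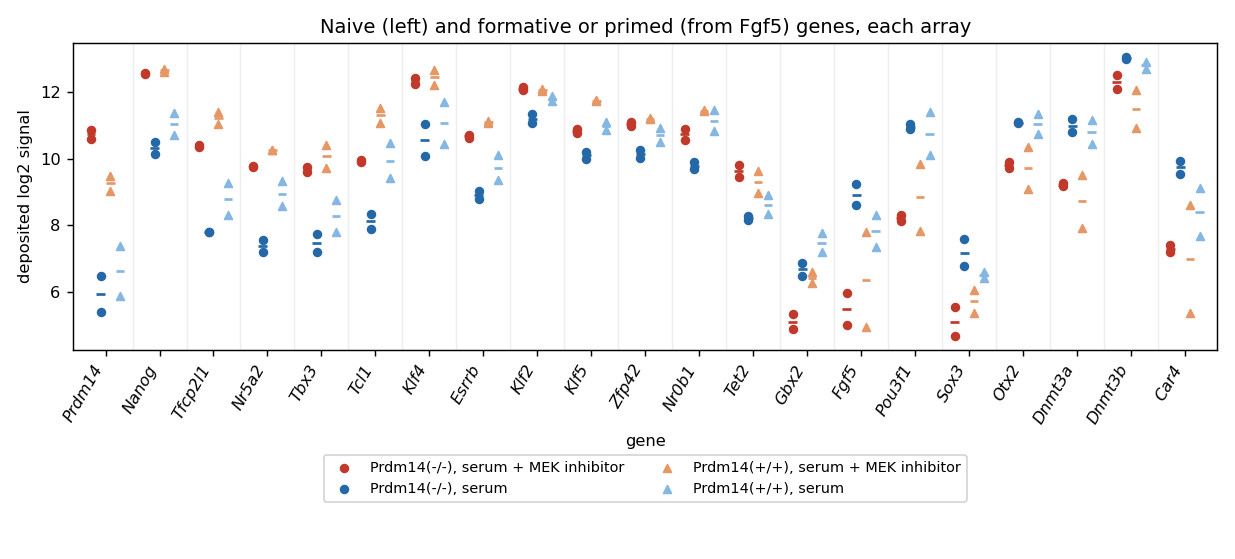
Each point is 1 array, and each dash a group mean, on the deposited log2 scale (y axis) for 21 genes (x axis), with colours and shapes by labelled genotype and medium as in the key. For Nanog, Tfcp2l1, Nr5a2 and Tbx3 the treated knockout circles stand above the serum circles; for Fgf5, Pou3f1 and Dnmt3a they stand below.

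Formative and primed genes, which mark the step after the naive state, went mostly the opposite way. Of 22 measured, 9 fell and 2 rose, with a median of -0.33. Fgf5, the classical epiblast ligand, read 5.97 and 4.98 with MEK inhibitor, against 9.24 and 8.61 in serum (difference -3.45, SE 0.68, adjusted p = 0.000949). In knockout 2i Fgf5 read 3.66 and 2.08, below the treated arrays. In wild type the Fgf5 difference was -1.46 and did not pass (adjusted p = 0.132), with treated replicates at 7.79 and 4.94. The Fgf5 responses of the genotypes did not differ by their own test (adjusted p = 0.506). Pou3f1, the POU factor Oct6, read 8.32 and 8.12 with MEK inhibitor, against 10.89 and 11.05 in serum (difference -2.75, SE 0.43, adjusted p = 0.000128). Sox3, a neural and epiblast factor, read 5.53 and 4.67 with MEK inhibitor, against 7.59 and 6.76 in serum (difference -2.08, adjusted p = 0.000334), while its further probe set had 0.56.

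Otx2, a homeobox factor of the epiblast, had 9.72 and 9.92 with MEK inhibitor, against 11.11 and 11.07 in serum. Its difference of -1.27 did not pass (SE 0.75, adjusted p = 0.256). This SE comes from the spread within all groups of the series, while the replicates of both compared groups lay close together. In knockout 2i Otx2 averaged 5.53, far below both. Falls were also called for Car4 (-2.45), Grhl2 (-1.41), Wnt8a (-0.97) and Lef1 (-0.51). These calls did not hold throughout with 1 array left out, a fit that leaves 1 array in a group. That of Lef1 was lost without serum replicate 1, and that of Grhl2 without MEK inhibitor replicate 2 or serum replicate 1. Those of Car4 and Wnt8a were lost without any 1 of 3 arrays. In these fits the differences ran from -0.55 to -0.46 for Lef1 and from -2.65 to -2.25 for Car4. For Grhl2 they ran from -1.81 to -0.995, and for Wnt8a from -1.24 to -0.71. Car4 kept its call only without serum replicate 2, and Wnt8a only without MEK inhibitor replicate 1. Lefty2, a Nodal antagonist, rose against the trend of its list: 12.15 and 12.61 with MEK inhibitor, against 8.69 and 9.84 in serum (difference 3.12, SE 0.38, adjusted p = 9.13e-06), and 3.79 with the batch term (adjusted p = 0.0013). Nodal itself rose by 0.51, a call that held only without MEK inhibitor replicate 1 (adjusted p up to 0.364 without the others). Over the list, 1 fall (Lef1) and 1 rise (Lefty2) were kept with the batch term.

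The DNA methylation genes were of interest because Prdm14 represses the de novo methyltransferases. Of 8 measured, 3 rose and 2 fell. Of these calls 0 rises and 0 falls were kept with the batch term, so those of Dnmt3a and Zfp57 below were also lost. Dnmt3a, a de novo methyltransferase, read 9.27 and 9.18 with MEK inhibitor, against 11.19 and 10.80 in serum (difference -1.77, SE 0.36, adjusted p = 0.00134). Its further probe sets had -0.82 to -1.89. Dnmt3b, the other de novo enzyme, read 12.54 and 12.11 with MEK inhibitor, against 13.06 and 13.01 in serum. Its difference of -0.71 (adjusted p = 0.0464) held only without MEK inhibitor replicate 1 (adjusted p up to 0.323 without the others) and turned to 1.79 with the batch term. Dnmt3l, their cofactor, had 11.89 and 11.72 with MEK inhibitor, against 11.67 and 11.62 in serum, a difference of 0.16 (adjusted p = 0.57). In wild type Dnmt3l fell by 1.02 (adjusted p = 0.000226), and the difference between the responses, 1.18, missed the test (adjusted p = 0.0519). Zfp57, which protects imprints, rose by 1.51 (adjusted p = 3.28e-07). Dnmt1, the maintenance enzyme, rose by 0.31, a call lost without MEK inhibitor replicate 2 or serum replicate 2 (adjusted p up to 0.0722), with -0.08 in a further probe set. Uhrf1, its cofactor, had 0.14 and did not pass. Of 8 demethylation genes 4 rose and 1 fell, among them the dioxygenase gene Tet1 at 0.80 (adjusted p = 2.72e-07) and Tet2, named above. None of these 4 rises was kept with the batch term (0 of 4), the median of the demethylation list was -0.44, against 0.45 without that term, and Tet1 and Tet2 were at -0.11 and -0.42.

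Germline genes that are silenced by promoter methylation showed 6 falls and 0 rises among 19, with a median of -0.65. Mael, of the transposon-silencing pathway, read 7.72 and 7.15 with MEK inhibitor, against 9.31 and 8.91 in serum (difference -1.68, adjusted p = 0.00123). Piwil2, a piRNA-binding protein, fell by 1.14 (adjusted p = 0.000158). Both kept their calls with the batch term. Slc25a31, a germline ADP/ATP carrier, fell by 1.70, a call lost without serum replicate 1 (adjusted p = 0.0519). Dazl, a germ cell RNA-binding protein, fell by 1.06, a call lost without MEK inhibitor replicate 1 or serum replicate 1 (adjusted p up to 0.149). In wild type 8 of the 19 fell and 0 rose.

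Primordial germ cell markers, some of them also in the lists above, showed 7 rises and 1 fall among 12, with a median of 1.10. Ifitm1, an interferon-inducible surface protein, read 12.18 and 12.40 with MEK inhibitor, against 10.67 and 10.61 in serum (difference 1.65, adjusted p = 6.1e-08), and 1.06 with the batch term (adjusted p = 0.0037). Elf3, an ETS factor, Ifitm3 and the receptor gene Kit rose by 2.42, 1.67 and 1.47. The batch term put Ifitm3 at -0.02 and Kit at -0.42.

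In the LIF and STAT3 list 4 of 16 genes rose and 4 fell. Il6st, which encodes the shared LIF receptor subunit gp130, rose by 0.73 (adjusted p = 1.45e-05) beside Lifr, Klf4 and Tfcp2l1. Myc, Junb, Gbx2 and the kinase gene Pim1 fell. With the batch term 0 of these 4 rises and 2 of these 4 falls were kept. The median of the LIF and STAT3 list was then -0.26, against 0.15 without that term. In the Nodal and BMP list 4 of 14 rose (28.6%) and 5 fell (35.7%). With the batch term 0 of these 5 falls and only 1 of these 4 rises, that of Lefty2, were kept. Id1 and Id3, targets of BMP signalling, fell (-1.29 and -1.04), while Id4 of the same family rose by 1.84 (adjusted p = 2.05e-05). Skil, a repressor of SMAD signalling that is itself a target of the pathway, fell by 1.18 (adjusted p = 0.000373).

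Genes of other lineages gave mixed counts, beside 15.0% of all genes that rose and 9.56% that fell. Of 13 mesoderm genes 1 rose and 0 fell, and of 12 neuroectoderm genes 3 rose and 2 fell. The neural factor gene Sox1 read 5.94 and 5.91 with MEK inhibitor, against 3.16 and 3.14 in serum, a rise of 2.77 (adjusted p = 0.00145). Of 14 trophoblast genes 5 rose and 1 fell. Plet1, a surface protein of trophoblast progenitors, rose by 2.10 (adjusted p = 8.75e-08), although a further probe set had -0.48. The homeobox gene Esx1 rose by 2.67 and the zinc finger factor gene Gata3 by 2.61 (adjusted p = 0.000211 and 0.000325). The Gata3 rise was 1.58 without serum replicate 1 and 3.63 without serum replicate 2. Krt18, a simple-epithelium keratin, fell by 1.86, a call lost without MEK inhibitor replicate 1 (adjusted p = 0.0806). Of 18 extraembryonic endoderm genes 7 rose and 2 fell. The matrix genes Col4a1, Col4a2, Sparc and Lamc1 rose by 1.56, 1.30, 1.25 and 0.85, and the Col4a2 rise was 0.84 without MEK inhibitor replicate 2. The endoderm factor genes Gata4, Gata6 and Sox17 had 0.10, 0.04 and -0.04. With the batch term 0 of the 3 neuroectoderm, 2 of the 5 trophoblast and 1 of the 7 extraembryonic endoderm rises were kept. Neither the mesoderm rise nor any fall in these lists was kept.

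Feeder fibroblast markers moved with the comparison. Of 26 measured, 17 rose and 1 fell in the arrays labelled knockout, with a median of 0.64, and 21 rose and 1 fell in wild type, with a median of 1.10. Their mean level was 7.50 and 7.80 on the knockout MEK inhibitor arrays, against 6.86 and 6.83 on the knockout serum arrays, and 8.83 and 8.92 in knockout 2i. Single values of the markers ran from 3.21 to 11.92, and 0 of them was listed at 0. Col1a1, a fibrillar collagen, read 7.61 and 7.83 with MEK inhibitor, against 4.48 and 4.41 in serum (difference 3.27, adjusted p = 1.19e-08), and Col3a1 and Col1a2 rose by 2.02 and 1.63. S100a6, a calcium-binding protein, fell by 0.69, a call lost without MEK inhibitor replicate 1 or serum replicate 2 (adjusted p up to 0.107). The fibroblast surface protein gene Thy1 had -0.31 (adjusted p = 0.0807). With the batch term the median of the list was -0.42, and Col1a1 was at 1.95 (adjusted p = 0.0027). In such bulk RNA fewer cells of a type and less RNA per cell cannot be told apart. The part of the feeders in the rises of collagens, Sparc and other matrix genes was not tested.

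Of the remaining lists, oxidative phosphorylation had 10 rises and 1 fall among 24 genes, with a median of 0.14. These are 41.7% and 4.17%, beside 15.0% and 9.56% of all genes. With the batch term 1 of these 10 rises was kept, the fall was not, and the median was 0.0475. Cholesterol synthesis had 3 rises and 5 falls among 19 genes, and 1 rise and 10 falls after quantile normalization. Idi1 (-0.62), Lss (-0.72) and Mvd (-0.73), enzymes of the pathway, fell, as did Dhcr7 (-0.58), its last step. All 5 falls were kept with the batch term. The call of Mvd was lost without serum replicate 1 (adjusted p = 0.0502), and that of Dhcr7 without MEK inhibitor replicate 1 or serum replicate 2 (adjusted p up to 0.0921). In wild type 4 of the 19 rose and 1 fell. In the G1 list 5 of 18 rose and 3 fell, among them the cyclin E gene Ccne1, which fell by 0.94 (adjusted p = 1.3e-06), and Cdk2 and Rbl1, a kinase and a pocket protein of G1, which rose by 0.91 and 0.93. With the batch term 0 of these 5 rises and 1 of these 3 falls were kept. The median of the G1 list was then -0.23, against 0.18 without that term. Genes of G2 and M phase had 8 rises and 2 falls among 20, but 5 rises and 6 falls after quantile normalization. With the batch term 0 of these 8 rises and 0 of these 2 falls were kept.

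Imprinted genes had 5 rises (18.5%) and 0 falls among 27, beside 15.0% and 9.56% of all genes. Plagl1, a zinc finger factor, is given below. Igf2, a growth factor, rose by 1.78 (adjusted p = 5.8e-07) and was -2.74 with the batch term. Polycomb repressive complex 2 had 1 rise and 1 fall among 11, heparan sulfate genes 5 rises and 3 falls among 19, and cadherins and desmosome genes 3 rises and 3 falls among 14. Glycolysis had 5 rises and 3 falls among 17, the amino acid stress response 4 and 2 among 20, and the p53 response 5 and 2 among 16. Wnt response genes had 2 rises and 2 falls among 12. Housekeeping genes had 5 rises (45.5%) and 2 falls (18.2%) among 11, beside 15.0% and 9.56% of all genes. With the batch term 0 of these 5 rises and 0 of these 2 falls were kept. The 3 measured genes of the 2-cell-like state were all without a call.

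**Figure D4:**
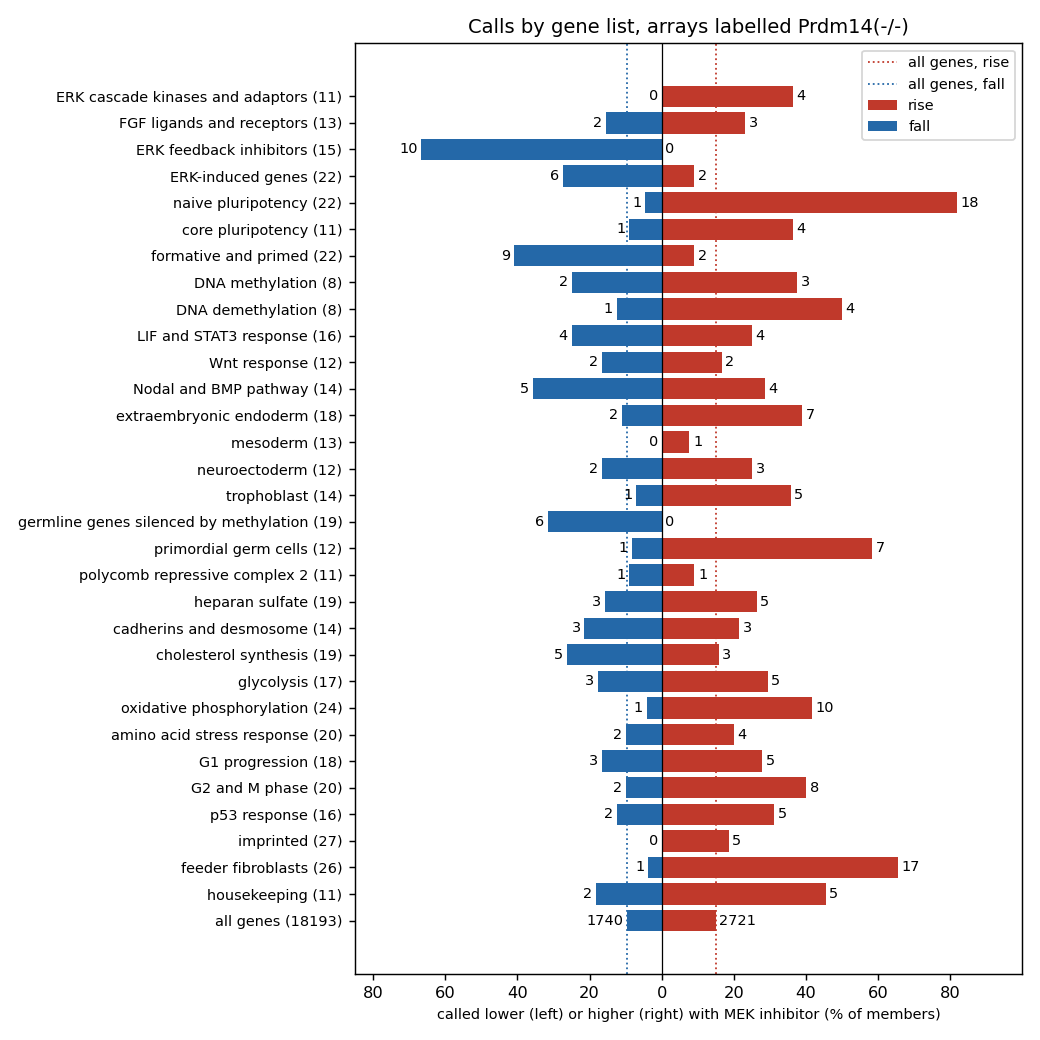
Bars give, for each list (y axis, number of measured genes in brackets), the share of members called lower (blue, to the left) and higher (red, to the right) with MEK inhibitor in the arrays labelled knockout, with counts at the bar ends. Dotted lines mark all genes (9.56% lower, 15.0% higher); naive genes (18 of 22) and feeder markers (17 of 26) extend farthest to the right and ERK feedback inhibitors (10 of 15) farthest to the left.

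The 12 largest rises with no overlap of arrays and a gene name were led by Prdm14. Ncam1, a neural adhesion molecule, read 8.62 and 8.56 with MEK inhibitor, against 4.04 and 4.91 in serum (difference 4.12, SE 0.35, adjusted p = 1.41e-07). Calcoco2, a receptor of selective autophagy, read 9.84 and 10.64 with MEK inhibitor, against 5.83 and 6.83 in serum (difference 3.91, adjusted p = 5.13e-07). Plagl1 read 10.76 and 11.16 with MEK inhibitor, against 7.0 and 7.21 in serum (difference 3.85, adjusted p = 1.17e-07). Copz2, a coatomer subunit, read 8.22 and 9.37 with MEK inhibitor, against 4.66 and 5.37 in serum (difference 3.78, adjusted p = 2.91e-07). Jam2, a junctional adhesion molecule, read 10.98 and 11.44 with MEK inhibitor, against 7.15 and 8.34 in serum (difference 3.46, adjusted p = 2.54e-07). Ncam1, Calcoco2 and Copz2 kept their calls with the batch term, at 2.54, 2.57 and 3.62, while Plagl1 (1.59) and Jam2 (1.26) did not.

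Sfrp1, a secreted Wnt antagonist that fibroblasts also make, read 9.76 and 11.55 with MEK inhibitor, against 5.85 and 7.92 in serum (difference 3.77, adjusted p = 0.000521). Its replicates lay far apart in both groups. Vax2os, Prr15 and Barhl1 rose by 4.20, 3.41 and 3.60 and were dim in serum. A further probe set of Vax2os had -0.68, and those of Prr15 had -1.05 and -0.77. With the mean of its probe sets Prr15 was at 0.53 and lost its call (adjusted p = 0.404), as it did with the batch term (0.51, adjusted p = 0.837). Vax2os was at 1.76 with the mean of its probe sets (adjusted p = 0.0468), and lost its call with the batch term (1.30, adjusted p = 0.602). The call of Barhl1 held only without MEK inhibitor replicate 2 (adjusted p up to 0.0739 without the others). Pramel6 read 4.36 and 4.75 with MEK inhibitor, and was listed at 0 on 1 serum array and at 1.77 on the other. S100g read 3.54 and 3.91 with MEK inhibitor, and was listed at 0 and at 0.10 in serum. With the batch term Sfrp1 was at 1.58 (adjusted p = 0.48) and Pramel6 at 1.57 (adjusted p = 0.275). Barhl1 was at 2.985 (adjusted p = 0.304) and S100g at 3.755 (adjusted p = 0.0891), so none of these calls was kept.

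Among the 12 largest falls were Fgf5, Pou3f1 and Etv4, described above, and Egr4, another ERK-responsive Egr factor. Egr4 read 0.80 and 3.66 with MEK inhibitor, against 4.83 and 5.36 in serum; its difference of -2.87 was -1.44 without MEK inhibitor replicate 1 and then lost its call (adjusted p = 0.0545). Tafa4, a secreted neuropeptide-like protein, read 1.18 and 2.46 with MEK inhibitor, against 5.95 and 5.60 in serum, the largest fall of all genes (-3.96, SE 0.80, adjusted p = 0.00126). Rasef, a Rab family GTPase, read 3.24 and 1.46 with MEK inhibitor, against 5.96 and 5.72 in serum (difference -3.49, adjusted p = 1.94e-05). Tmem54, a membrane protein, read 3.39 and 3.51 with MEK inhibitor, against 6.41 and 6.43 in serum (difference -2.97, adjusted p = 9.67e-07), and was -2.43 with the batch term (adjusted p = 0.0037). Of the 12 falls, only those of Tmem54 and Etv4 kept their calls in that limma fit. Tafa4 was then at -2.685 (adjusted p = 0.254), Rasef at -1.24 (adjusted p = 0.408) and Sox14 at -3.19 (adjusted p = 0.266). Psors1c2 (-3.09), the vitamin C transporter gene Slc23a1 (-2.73) and the semaphorin gene Sema6a (-2.71) also fell. Prss21, a serine protease gene, fell by 2.94, a call lost without MEK inhibitor replicate 2 or serum replicate 1 (adjusted p up to 0.0772). Sox14 read 0.10 on one MEK inhibitor array and was listed at 0 on the other, against 3.10 and 3.17 in serum; its call was lost without any 1 array (adjusted p up to 0.114).

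The responses of the genotypes were alike in direction for most called genes. Of the rises in the arrays labelled knockout, 1817 were also called higher in wild type (66.8% of the knockout and 70.0% of the wild-type rises), while 14.3% of all genes were called higher in wild type. Of the falls, 1077 were shared (61.9% of the knockout falls, and 1077 of the 2033 wild-type falls), while 11.2% of all genes were called lower in wild type, and 16 genes had opposite calls. The sign was the same in both genotypes for 95.1% of called knockout genes and for 72.9% of all genes. These shares come from comparisons with the same labelling batches on either side. The difference between the responses itself passed for 42 genes (0.231%), 25 (0.137%) more positive and 17 (0.0934%) more negative in knockout. Without knockout serum replicate 1 that count was 20, without dim genes it was 70, and in a fit of the compared arrays only it was 0 (limma, with 1282 genes at an unadjusted p under 0.05).

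**Figure D5:**
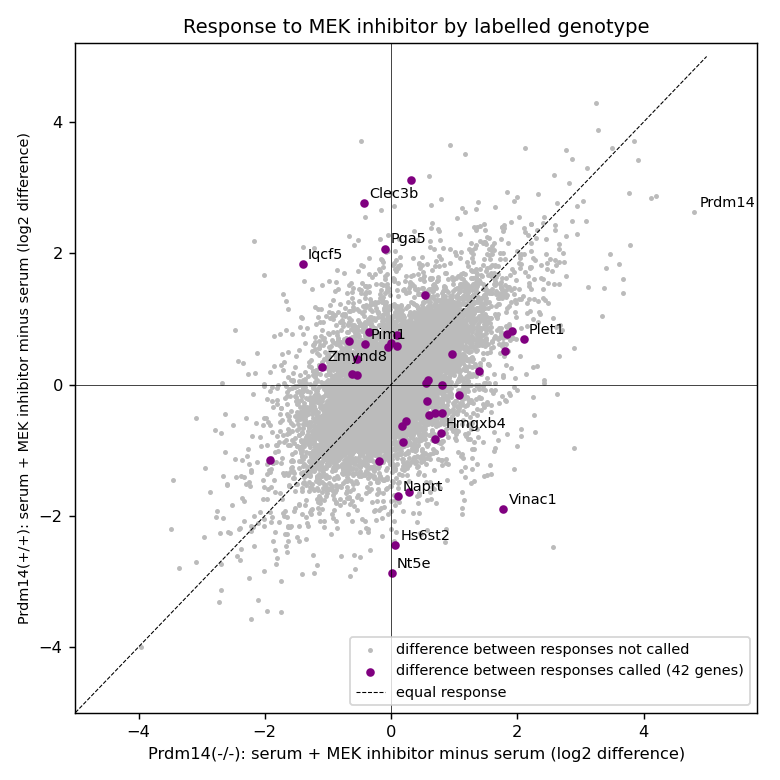
Each point is 1 gene, with the response in the arrays labelled knockout on the x axis and that in wild type on the y axis (both MEK inhibitor minus serum, log2 units). Points scatter around the dashed line of equal response; the 42 purple genes are those whose responses differed by the test, with Nt5e, Hs6st2 and Naprt near 0 in knockout and below -1 in wild type.

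Several of these 42 genes had a response in wild type that was near 0 in the arrays labelled knockout. Hs6st2, a heparan sulfate sulfotransferase, read 9.09 and 9.56 with MEK inhibitor, against 9.07 and 9.44 in serum, in knockout. In wild type it read 6.81 and 6.30 with MEK inhibitor, against 9.01 and 8.99 in serum. Its responses differed by 2.52 (SE 0.24, adjusted p = 7.74e-05). Nt5e, the ecto-nucleotidase CD73, read 8.83 and 8.11 with MEK inhibitor, against 8.71 and 8.21 in serum, in knockout, while wild type had 5.56 and 5.69, against 8.37 and 8.64. Naprt, an enzyme of NAD synthesis, had 0.10 in knockout and -1.70 in wild type, and the sarcoglycan gene Sgce 0.28 and -1.65. Hmgxb4, an HMG-box protein, rose by 0.79 in knockout and fell by 0.74 in wild type. The differences of Hs6st2 and Nt5e were 0.07 and 0.01 in knockout, against -2.44 and -2.88 in wild type.

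On the other side, Pga5, a pepsinogen, had -0.09 in knockout and 2.07 in wild type, and Clec3b, a plasminogen-binding lectin, -0.42 and 2.76. Stard4, a cholesterol carrier, fell by 0.67 in knockout, a call lost without MEK inhibitor replicate 1 (adjusted p = 0.0882), and rose by 0.67 in wild type. Zmynd8, a chromatin reader, fell by 1.09 in knockout and had 0.28 in wild type, but of its 4 further probe sets 3 had 0.22 to 1.87 in knockout and 1 had -0.49. Nup210, a nuclear pore protein, had -0.35 and 0.80. Vinac1 and Iqcf5 were dim and had 1.77 and -1.40 in knockout against -1.90 and 1.83 in wild type. Both knockout calls were lost without any 1 of 3 arrays (adjusted p up to 0.141 and 0.157). Vinac1 kept its call only without serum replicate 1, and Iqcf5 only without MEK inhibitor replicate 2.

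Among listed genes the test of the difference also passed for Plet1, Pim1, Idi1 and Hmgcs1. Plet1 read 8.45 and 8.69 with MEK inhibitor, against 6.30 and 6.64 in serum, in knockout, and 8.08 and 8.32, against 7.42 and 7.59, in wild type. Pim1 read 10.16 and 10.06 with MEK inhibitor, against 10.62 and 10.42 in serum, in knockout, and 10.79 and 10.86, against 10.10 and 10.32, in wild type. Its knockout difference of -0.41 held only without serum replicate 2 (adjusted p up to 0.221 without the others), and a further probe set had 0.40. Idi1 had -0.62 in knockout and 0.17 in wild type. Hmgcs1, an early enzyme of cholesterol synthesis, had -0.04 in knockout and rose by 0.57 in wild type (adjusted p = 9.3e-06).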

How the data were processed

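The authors deposited 1 normalized value per probe set and array on a log scale taken as log2; no source used here gives the base, background correction or normalization, and base 2 was inferred from the highest value (13.89). Array medians lay between 4.86 and 5.01. Per the labels' protocols, biotin-labelled cRNA was made by the one-cycle Affymetrix method. Of 45100 probe sets, 64 were controls and 34944 had 1 symbol in GEO's platform annotation. Sets with several symbols (932) or no listed symbol (9160) were left out. Each of 18193 genes took its probe set of highest mean over 26 arrays. Of the 146 genes named in the text, 80 have further probe sets and 27 have one of opposite sign.

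A limma 3.58.1 model (R 4.3.3) held 1 coefficient per group over all arrays, with 13 residual degrees of freedom and an intensity trend. Tests were two-sided, and p-values were adjusted by Benjamini-Hochberg over all genes. The number of arrays limits the precision. Python 3.11.15 and matplotlib 3.10.9 drew the plots. Promoter sequences and motif shares come from RefSeq (GRCm38.p6).

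Named genes were Prdm14, the 12 largest rises and 12 largest falls among called genes whose arrays did not overlap, the 6 largest differences between genotypes in each direction, and list members. The comparison, lists and rule were chosen with earlier results of these data known. Of 552 list entries 507 matched. Alternatives tried were quantile normalization, no trend, dim genes left out, probe set means, compared arrays only, replicate blocks, a labelling batch term and each array left out.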

Additional observations from a re-analysis of the deposited data

Results flagged for a closer look

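The response to MEK inhibitor differed between arrays labelled knockout and wild type, by a test of the difference itself (limma interaction, adjusted p under 0.05), for 16 of the genes named above. The differences, knockout minus wild type in log2 units, were positive for Vinac1 (3.67), Nt5e (2.89), Hs6st2 (2.52), Sgce (1.93), Naprt (1.80), Hmgxb4 (1.53) and Plet1 (1.41). They were negative for Iqcf5 (-3.23), Clec3b (-3.19), Pga5 (-2.16), Zmynd8 (-1.36), Stard4 (-1.33), Nup210 (-1.15), Pim1 (-1.02), Idi1 (-0.79) and Hmgcs1 (-0.62). The calls of Nt5e, Hs6st2, Sgce, Naprt, Hmgxb4, Pga5, Idi1 and Hmgcs1 held without any 1 of the 8 arrays. Those of Pim1, Plet1, Vinac1, Iqcf5, Clec3b, Zmynd8, Stard4 and Nup210 were lost without 5, 4, 7, 6, 6, 5, 2 and 5 of the arrays, with adjusted p up to 0.122, 0.0891, 0.13, 0.11, 0.116, 0.0783, 0.0673 and 0.101. Knockout serum replicate 1 was among those arrays for each of these 8 genes.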

How the results depend on the processing

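Replicate numbers are shared between groups, but no label says that they pair samples. Deviations of same-numbered arrays of a line correlated at 0.0989 to 0.216. With a replicate block 4771 knockout and 4945 wild-type calls and 64 differences between the responses passed, with the block by line 5937, 6172 and 573, and with it as a random block by line 5557, 5829 and 243, against 4461, 4630 and 42 without a block. Each array left out in turn gave 2940 to 3701 knockout calls, 2973 to 4006 wild-type calls and 20 to 44 differences. The compared arrays alone gave 2602, 1822 and 0, and the batch term 995 and 875. Differences numbered 20 with no trend, 70 without dim genes and 21 with probe set means. Of 146 named genes the batch term left 50 on the same side of the threshold, took the call of 70, gave 8 a call and turned 18, against 3 lost calls after quantile normalization and 18 with the compared arrays alone; the cause was not tested.

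Among called genes, the signs turned with the batch term were those of Spry2 (0.24), Myc (0.67), Fos (-1.81), Rps6ka3 (-0.0575), Fgf4 (-0.06), Fgf10 (-0.30), Esrrb (-0.045), Klf5 (-0.68), Tcl1 (-0.33), Tet2 (-0.42), Nr0b1 (-0.45), Wnt8a (0.97), Dnmt3b (1.79), Dnmt1 (-0.14), Tet1 (-0.11), Ifitm3 (-0.02), Kit (-0.42) and Igf2 (-2.74). With the mean of probe sets the called genes that turned were Spred1 (0.0629), Shoc2 (-0.0475), Sos1 (-0.15) and Zmynd8 (0.20), whose probe sets disagree. Of genes without a call, 6 turned with the batch term, among them Dusp1 (-0.57) and Il17rd (-0.03), and 2 with the mean of probe sets, Spred2 (-0.03) and Nt5e. Levels near 0 have no background estimate in the files, which limits differences of dim genes.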
